A study of Mus musculus with 23 samples.

Results

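The comparison is between the ventral prostates of intact C57BL/6J mice on 2 diets, a folic acid enriched diet with 24 mg folic acid per kg and a control diet with 4 mg per kg. It takes 8 of the 23 RNA-seq libraries of the study, 4 on the folic acid diet and 4 on the control diet, and all genes of the deposited table. Both diets were given from fetal life onward, and the glands were taken at 7 weeks of age from mice that kept their testes. The other 15 libraries came from mice castrated at that age, with the gland taken 3 d later (4 on the folic acid diet and 3 on the control diet) or 10 d later (4 on each diet). They entered the fit and are used here only to ask whether a diet difference of the intact gland was also seen there. The labels name no engineered allele. The labels describe 4 mice per group, so each library was taken as 1 mouse. No litter is labelled, and since the diet began before birth, effects of litter and of diet cannot be told apart.

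Folate carries one-carbon units between serine, glycine, formate and methionine. Those units are used to make thymidylate and purines for DNA synthesis and S-adenosylmethionine, the methyl donor of DNA, RNA and histone methylation and the source of the aminopropyl groups of polyamines. The ventral prostate of the mouse is a secretory lobe whose luminal cells make large amounts of a few secreted proteins under androgen control, and it makes and exports polyamines in quantity. The secretory load is handled in the endoplasmic reticulum, where chaperones, disulfide isomerases and the degradation machinery for misfolded proteins are adjusted by the unfolded protein response.

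The difference between the diets was small in number of genes and led by falls. Of 20308 gene symbols 13412 were tested, and 7 passed an adjusted p under 0.05 (edgeR's quasi-likelihood test, Benjamini-Hochberg adjustment over all tested genes). Il13ra1, Ank, Gpx3, Tsc22d3, Chn1 and Pdia4 fell on the folic acid diet, which is 0.0447% of the tested genes, and Asgr1 rose, 0.00746% of them. At an unadjusted p under 0.05 there were 319 genes higher (2.38%) and 518 lower (3.86%). In 242 genes (1.8%) every library on the folic acid diet stood above every control library, and in 348 genes (2.59%) every one stood below. The median log2 change of all tested genes was -0.016, and the SE of a log2 change was 0.291 at the median gene. Levels are given below as CPM, counts scaled to a common library size with TMM factors, and the libraries of a group are listed in the order of replicates 1 to 4.

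The 4 libraries on the folic acid diet held 6381550 to 15616042 counts and the 4 control libraries 10651355 to 15543655. The defining epithelial genes were present in all 8, with Krt8 at 499 to 669 CPM on the folic acid diet and 523 to 629 CPM on the control diet, and the androgen-driven spermine-binding protein gene Sbp alone took 49.3 to 59.8% of counts on the folic acid diet and 50.1 to 52.8% on the control diet. Counts of seminal vesicle secretory genes did not exceed 9 in any intact library on the folic acid diet and were 0 in the control libraries for Svs2, Svs3a, Svs4 and Svs5. Folic acid replicate 3 stood apart on the first principal component (34.2% of the variance) and had the lowest summed level of stromal markers, 1615 CPM, against 4146 to 4983 CPM in the other folic acid libraries and 4624 to 6963 CPM in the control libraries. On the second component folic acid replicate 2 stood at 74.1, against -30 to 4.1 in the other intact libraries. Control replicate 2 held 6095 CPM of skeletal muscle markers, against 139 to 385 CPM in the folic acid libraries and 198 to 305 CPM in the other control libraries. Folic acid replicate 4 was the shallowest, and it decided the number of genes that passed more than any other library: 48 passed without it, all 7 among them. Without folic acid replicate 3 the number was 3 (Ank, Gpx3 and Il13ra1), and without control replicate 1, 3 or 4 it was 4 each time.

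The promoters of 3 genes that fell both in the intact gland and 3 d after castration, Il13ra1, Gpx3 and Tsc22d3, and that of Pdia4, the gene of the endoplasmic reticulum that passed, are printed from RefSeq (GRCm38.p6), from 250 bases before to 50 bases after the annotated start, 5′ to 3′ on the strand of the gene. Tsc22d3 has several annotated starts, and the window of the most upstream one is shown. Capitals mark AGAACA on either strand, a half-site of steroid receptors, in the first 3, and CCAAT on either strand in Pdia4.
Il13ra1, chrX:36111858-36112157, plus strand: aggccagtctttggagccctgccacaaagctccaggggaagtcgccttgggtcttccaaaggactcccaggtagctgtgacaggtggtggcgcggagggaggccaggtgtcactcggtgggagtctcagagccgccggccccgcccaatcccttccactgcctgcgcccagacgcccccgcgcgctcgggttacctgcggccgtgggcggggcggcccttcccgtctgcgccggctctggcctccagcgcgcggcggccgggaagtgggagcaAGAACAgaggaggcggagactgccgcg
Gpx3, chr11:54902604-54902903, plus strand: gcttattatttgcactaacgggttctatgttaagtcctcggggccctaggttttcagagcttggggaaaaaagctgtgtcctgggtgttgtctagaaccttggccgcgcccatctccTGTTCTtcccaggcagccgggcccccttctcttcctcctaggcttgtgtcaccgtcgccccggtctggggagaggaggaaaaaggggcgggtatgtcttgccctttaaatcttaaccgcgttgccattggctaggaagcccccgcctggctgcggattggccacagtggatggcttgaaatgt
Tsc22d3, chrX:140600473-140600772, minus strand: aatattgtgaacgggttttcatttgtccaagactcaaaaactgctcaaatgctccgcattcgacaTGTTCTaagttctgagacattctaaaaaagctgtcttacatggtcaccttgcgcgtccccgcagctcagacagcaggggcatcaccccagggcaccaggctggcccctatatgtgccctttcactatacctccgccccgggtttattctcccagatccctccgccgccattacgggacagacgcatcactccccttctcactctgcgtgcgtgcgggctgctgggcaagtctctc
Pdia4, chr6:47813463-47813762, minus strand: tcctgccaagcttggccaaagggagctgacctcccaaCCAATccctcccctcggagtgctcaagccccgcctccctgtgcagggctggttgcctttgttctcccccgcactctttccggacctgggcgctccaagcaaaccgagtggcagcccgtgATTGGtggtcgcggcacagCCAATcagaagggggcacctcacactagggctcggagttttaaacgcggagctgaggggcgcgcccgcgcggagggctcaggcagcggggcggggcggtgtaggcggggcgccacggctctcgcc
All 7 genes had at least 1 window in the table, 11 windows in all. The half-site was found in 4 of the 11, one each in Il13ra1, Gpx3, Tsc22d3 and Pdia4, while 19.0% of all 32851 promoter windows hold it. The full palindrome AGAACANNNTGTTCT was in none of the 11 and in 0.00913% of all windows. CCAAT was found in 37.4% of all windows. The endoplasmic reticulum stress response element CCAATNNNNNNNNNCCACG, which includes it, was not in the Pdia4 window and was in 0.119% of all. The windows of Derl3, Dnajb9, Herpud1 and Sel1l, genes of the endoplasmic reticulum described below, were also searched. That of Derl3 held this exact pattern, at -156 from the start, and the others did not. Forms of the element with other bases or spacing were not searched for, in these windows or in that of Pdia4. The 7 genes lay on chromosomes 2, 6, 11, 15 and X, and no pair of them started within 0.5 Mb of each other. The closest pair, Gpx3 and Asgr1, lay 15.2 Mb apart on chromosome 11, where 1081 of the 12782 tested genes with a position lie.

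**Figure D1:**
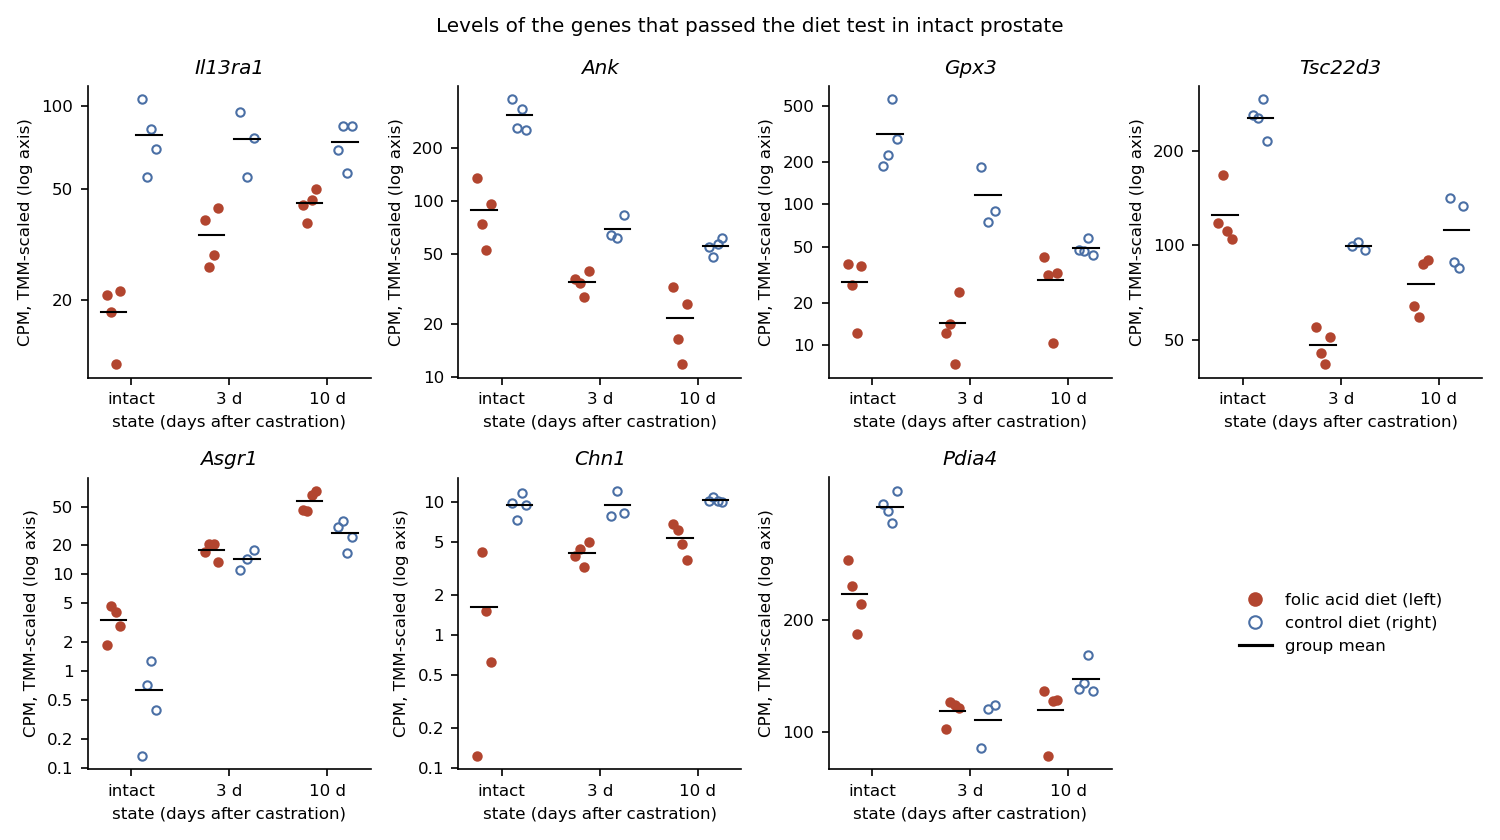
Level of each of the 7 genes that passed in intact prostate, in CPM on a log axis, for every library of the folic acid diet (filled, left) and the control diet (open, right) in intact mice and 3 d and 10 d after castration, with black bars for group means. The intact libraries of the diets do not overlap in any panel, and Il13ra1, Ank, Gpx3, Tsc22d3 and Chn1 have a lower mean on the folic acid diet in all 3 states.

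Il13ra1 encodes a subunit that binds interleukin-13 and, paired with the interleukin-4 receptor alpha chain, forms the receptor through which both cytokines act on epithelial and stromal cells. The gene lies on the plus strand at chrX:36112110-36171259 (GRCm38, GENCODE M21). Its level was 20.8, 18.0, 11.7 and 21.6 CPM on the folic acid diet, against 106, 55.4, 82.2 and 69.7 CPM on the control diet. The highest library on the folic acid diet thus stood well below the lowest control library. The log2 change was -2.12 ± 0.22 (SE, n = 4 each; edgeR adjusted p = 1.08e-06). Il13ra1 passed in each of the 20 other fits that were run, with log2 changes of -2.25 to -1.94.

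Ank encodes a membrane protein that exports pyrophosphate and related small anions from cells and restrains mineral deposition in joints, and it lies at chr15:27466677-27594909 on the plus strand. It stood at 134, 74.1, 52.6 and 95.2 CPM on the folic acid diet, against 376, 259, 330 and 253 CPM on the control diet. No libraries of the groups overlapped. Its log2 change was -1.77 ± 0.25 (n = 4 each; edgeR adjusted p = 0.00163), and it passed in all 20 other fits as well.

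Gpx3, the secreted glutathione peroxidase of extracellular fluid, had the largest fall of the 7 genes. Its gene spans chr11:54902453-54910377 on the plus strand. It was measured at 38.0, 26.8, 12.2 and 36.4 CPM on the folic acid diet, against 187, 225, 557 and 290 CPM on the control diet. Both groups were spread, the control libraries most, but they did not overlap. The log2 change was -3.47 ± 0.49 (n = 4 each; edgeR adjusted p = 0.00722). Gpx3 did not pass in a fit of the 8 intact libraries alone, with an adjusted p of up to 0.433 there, and passed in the other 18. Of the other 45 tested genes of glutathione metabolism and oxidative stress defence none passed. The list's median log2 change was 0.121, or -0.02 with library totals in place of TMM factors, beside -0.016 and -0.151 for all genes.

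Gpx3 is also a member of the fibroblast and extracellular matrix list of 25 genes, and none of the other 24 passed. The log2 change was below 0 in 19 of the 25 and above 0 in 6, beside 6949 below and 6463 above among all 13412 tested genes. The summed level of the 25 fibroblast genes was 1667, 1389, 696 and 1324 CPM on the folic acid diet, against 2437, 2010, 2314 and 2968 CPM on the control diet. In whole-tissue RNA, fewer cells of a type and less RNA per cell cannot be told apart. Without Gpx3 and the collagen VI chain gene Col6a3 the sum of the other 23 was 1270, 998, 289 and 920 CPM on the folic acid diet, against 1377, 1193, 912 and 1552 CPM on the control diet, and the groups then overlapped. Col6a3 stood at 359 to 394 CPM on the folic acid diet, against 592 to 1126 CPM on the control diet, with a log2 change of -1.21 ± 0.40 (adjusted p = 0.68). In a fit of the 8 intact libraries alone Col6a3 passed (adjusted p = 0.00975). The median log2 change of the list was -0.475, and -0.207 without folic acid replicate 3, with 14 then below 0 and 11 above. The part of the stromal markers in the Gpx3 difference was not tested.

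Tsc22d3 encodes the glucocorticoid-induced leucine zipper protein, a transcriptional regulator whose gene is switched on by glucocorticoids and also by androgens. It lies at chrX:140539528-140600659 on the minus strand. Its level was 117, 167, 111 and 105 CPM on the folic acid diet, against 258, 253, 291 and 215 CPM on the control diet. The libraries of the diets did not overlap, and the log2 change was -1.02 ± 0.18 (n = 4 each; edgeR adjusted p = 0.00845). It no longer passed without folic acid replicate 1 (adjusted p = 0.0573), folic acid replicate 3 (0.0756) or control replicate 3 (0.0662). Nor did it pass without both folic acid replicate 3 and control replicate 2 (edgeR adjusted p = 0.18).

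Tsc22d3 was the only one of 21 tested glucocorticoid-responsive genes that passed. The log2 change was above 0 in 13 of the 21 and below 0 in 8, beside 6463 above and 6949 below among all 13412 tested genes. At an unadjusted p under 0.05 there were 3 lower and none higher, beside 3.86% lower and 2.38% higher of all tested genes. Libraries did not overlap in 2, both lower, beside 2.59% lower and 1.8% higher of all. The zinc finger gene Zbtb16, also induced by glucocorticoids, had 12.9 to 20.1 CPM on the folic acid diet, against 27.1 to 55.1 CPM on the control diet (log2 change -1.29 ± 0.41, adjusted p = 0.632). The kinase gene Sgk1 had a log2 change of -0.46 ± 0.21 (adjusted p = 0.78). Cdkn1a, the next member by p, leaned the other way (0.755 ± 0.627, adjusted p = 0.879). Fkbp5, which encodes a receptor co-chaperone and is induced by both glucocorticoids and androgens, had 223 to 329 CPM on the folic acid diet and 190 to 409 CPM on the control diet (log2 change -0.20 ± 0.20, adjusted p = 0.904). The median of the list was 0.156, and -0.001 with library totals in place of TMM factors, beside -0.016 and -0.151 for all genes.

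Pdia4, a protein disulfide isomerase of the endoplasmic reticulum, lies at chr6:47796141-47813430 on the minus strand. It stood at 289, 247, 183 and 221 CPM on the folic acid diet, against 410, 391, 364 and 444 CPM on the control diet. The libraries did not overlap. Its log2 change of -0.78 ± 0.15 (n = 4 each; edgeR adjusted p = 0.0358) was the smallest of the 7, and its call was not firm. It was lost without any 1 of the control libraries (adjusted p from 0.0662 to 0.167), without folic acid replicate 2 (0.0697) and without folic acid replicate 3 (0.361). The call was also lost in the 8 intact libraries alone (0.0743, or 0.0801 with the replicate block) and in a fit that was not robust (0.0507). Without both folic acid replicate 3 and control replicate 2 the edgeR adjusted p was 0.58.

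Pdia4 belongs to a list of 78 genes for protein secretion and for folding stress in the endoplasmic reticulum, of which 77 were tested, and most of the others leaned the same way. Pdia4 alone passed, 1 lower and none higher. The log2 change was below 0 in 61 and above 0 in 16, with a median of -0.173, against -0.016 for all genes. Of all 13412 tested genes 6949 were below 0 and 6463 above. At an unadjusted p under 0.05 there were 18 lower and none higher, beside 3.86% lower and 2.38% higher of all tested genes. The libraries of the diets did not overlap in 19 genes, all lower on the folic acid diet. Without overlap, 2.59% of all tested genes were lower and 1.8% higher. The summed level of the list was 35920, 39450, 32080 and 29560 CPM on the folic acid diet, against 40610, 38480, 41750 and 44030 CPM on the control diet, so folic acid replicate 2 stood above control replicate 2. The median lay between -0.203 and -0.119 when 1 intact library was left out. With library totals in place of TMM factors it was -0.313, and the median of all genes was then -0.151.

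The next members of the list by p did not pass in the edgeR fit. Derl3, part of the channel that takes misfolded proteins out of the endoplasmic reticulum, had 26.4, 38.6, 17.1 and 23.4 CPM on the folic acid diet, against 49.7, 58.0, 64.9 and 58.7 CPM on the control diet (log2 change -1.13 ± 0.30, adjusted p = 0.333). Dnajb9, a co-chaperone of the chaperone BiP, had 40.7 to 66.1 CPM on the folic acid diet, against 70.02 to 106 CPM on the control diet (-0.76 ± 0.20, adjusted p = 0.369). Herpud1, which helps to assemble the degradation complex, had 235 to 301 CPM on the folic acid diet, against 314 to 439 CPM on the control diet (-0.54 ± 0.15, adjusted p = 0.412). None of the 3 overlapped between the diets. Sel1l, of the same complex, was at -0.54 ± 0.16 (adjusted p = 0.483). Other tools called more members. DESeq2 called 2 of the 77, Herpud1 and Pdia4, and limma-voom with sample weights called 7, which were Derl3, Dnajb9, Herpud1, Hyou1, Pdia4, Sel1l and Syvn1. Among all 13412 tested genes DESeq2 called 23 and limma-voom 33.

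**Figure D2:**
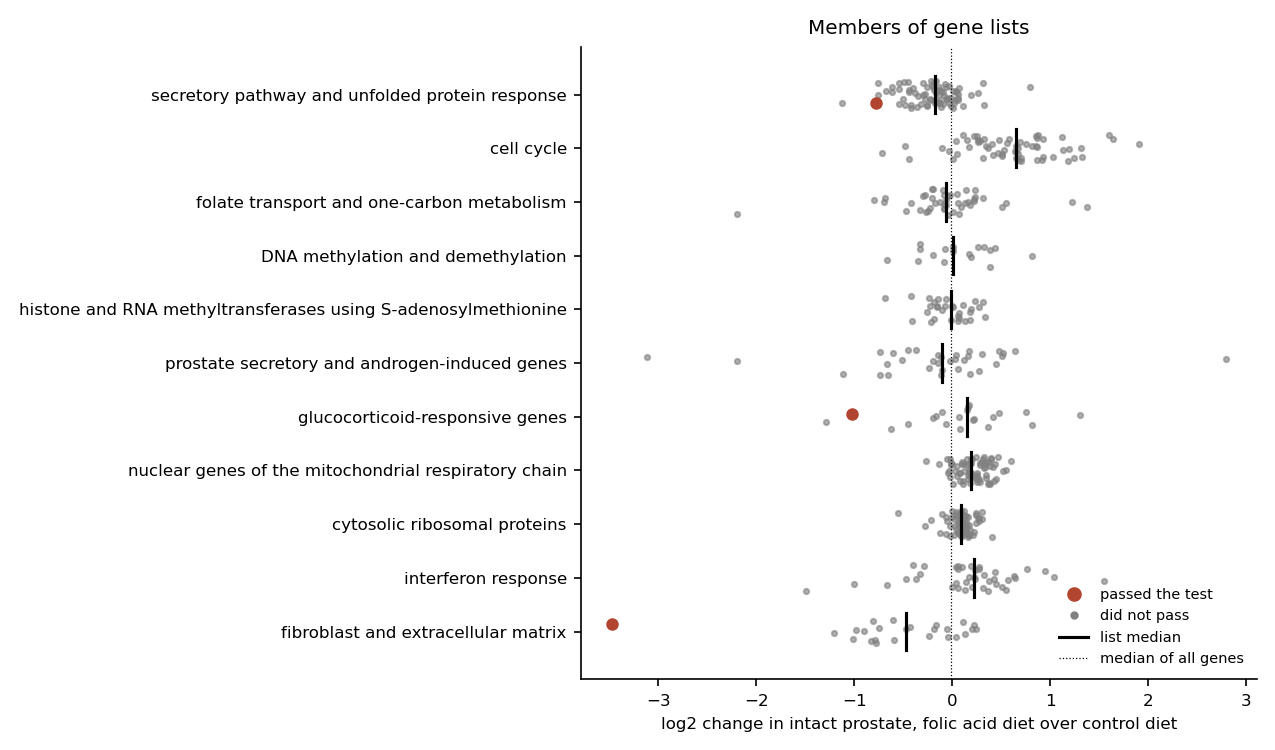
Log2 change in intact prostate, folic acid diet over control diet, of every tested member of 11 gene lists (grey points), with genes that passed in red, the list median as a black bar and the median of all genes as a dotted line. The secretory pathway list centres at -0.173 with Pdia4 in red, the cell cycle list at 0.652 with no gene passing, and the folate list at -0.067.

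Chn1 and Asgr1 rest on few counts. Chn1 encodes a GTPase-activating protein for Rac that is best known from neurons and lies at chr2:73610660-73775346 on the minus strand. It stood at 0.123, 4.25, 1.53 and 0.628 CPM on the folic acid diet, from 50 counts in all, against 9.89, 7.37, 11.7 and 9.53 CPM on the control diet, from 350 counts. All 4 control libraries stood above all 4 on the folic acid diet, and the log2 change was -2.50 ± 0.49 (n = 4 each; edgeR adjusted p = 0.0339). The annotation places antisense genes within Chn1, and whether reads were counted by strand is not given in the sources used here. Chn1 lost its call in 9 of the 20 other fits. Among them were those without folic acid replicate 1 or 3 and without control replicate 1, 3 or 4 (edgeR adjusted p from 0.0761 to 0.168). In the edgeR fit of the 8 intact libraries alone its adjusted p was 0.34.

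Asgr1 encodes the major subunit of the asialoglycoprotein receptor, a lectin best known from hepatocytes, and lies at chr11:70054085-70057894 on the plus strand. It was the 1 gene that rose. Its level was 1.84, 4.71, 4.07 and 2.93 CPM on the folic acid diet, from 94 counts in all, against 0.134, 0.725, 1.28 and 0.397 CPM on the control diet, from 24 counts. The groups did not overlap, and the log2 change was 2.35 ± 0.42 (n = 4 each; edgeR adjusted p = 0.00845). It lost its call in 8 of the 20 other fits. Among them were those without folic acid replicate 2 or 3 and without control replicate 1 or 4 (edgeR adjusted p from 0.0582 to 0.0939). In the edgeR fit of the 8 intact libraries alone its adjusted p was 0.489.

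The other 4 genes with the smallest p among those higher on the folic acid diet did not pass. Bcl2l14, a member of the BCL2 family, had 78.8, 67.7, 101 and 70.7 CPM on the folic acid diet, against 54.1, 38.6, 45.0 and 52.8 CPM on the control diet (log2 change 0.74 ± 0.16, adjusted p = 0.0804). Ppp1r1b, a phosphatase inhibitor that is also a marker of proximal luminal cells, had 45.6, 65.5, 65.8 and 63.6 CPM on the folic acid diet, against 34.6, 33.0, 24.5 and 23.0 CPM on the control diet (1.06 ± 0.23, adjusted p = 0.0871). Irf7, a transcription factor that drives type I interferon genes, had 20.9, 22.9, 17.3 and 25.3 CPM on the folic acid diet, against 9.89, 10.0, 10.4 and 11.7 CPM on the control diet (1.04 ± 0.25, adjusted p = 0.172). Arhgap23, a GTPase-activating protein, had 14.5, 15.5, 16.1 and 9.63 CPM on the folic acid diet, against 3.88, 6.52, 5.11 and 4.67 CPM on the control diet (1.47 ± 0.36, adjusted p = 0.189). In all 4 the libraries of the diets did not overlap. DESeq2 called all 4.

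Irf7 stood among 41 tested interferon response genes, of which none passed in the edgeR fit. Their median log2 change was 0.222, with 32 above 0, and 2 genes had an unadjusted p under 0.05, both higher. Of all 13412 tested genes 6463 were above 0, and 2.38% were higher at that p. DESeq2 and limma-voom called Irf7 alone. Libraries did not overlap in 4 of the 41, each higher on the folic acid diet, beside 1.8% of all tested genes. Among the 4 were Irf7, the RNA sensor Oas1a and Ifit1, which binds viral RNA. Oas1a had 15.4 to 19.3 CPM on the folic acid diet, against 6.76 to 13.9 CPM on the control diet. Ifit1 had 22.2 to 36.2 CPM on the folic acid diet, against 17.2 to 21.5 CPM on the control diet. The summed level of the list was 806, 905, 845 and 929 CPM on the folic acid diet, against 725, 661, 797 and 753 CPM on the control diet. The summed lymphocyte markers lay at 8.16 to 17.4 CPM on the folic acid diet and 8.55 to 17.8 CPM on the control diet, and the macrophage markers at 102 to 135 CPM on the folic acid diet and 93.4 to 139 CPM on the control diet.

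No gene of folate transport or one-carbon metabolism passed the test. Of 51 genes listed 45 were tested, with 27 below 0 and 18 above 0 and a median log2 change of -0.067. At an unadjusted p under 0.05 there was 1 lower and none higher, and neither DESeq2 nor limma-voom called any. Among the 32 whose log2 CPM averaged 3 or more, the log2 changes lay between -0.69 and 0.51. The widest of their 95% intervals was that of Psat1, an enzyme of serine synthesis, which reached from -1.65 to 1.46.

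Of the folate carriers, Slc19a1 and Slc46a1 differed between the diets by less than the SD of either group. The reduced folate carrier Slc19a1 averaged 9.71 ± 1.64 CPM on the folic acid diet and 8.54 ± 1.44 CPM on the control diet (SD, n = 4 each). The proton-coupled folate transporter Slc46a1 averaged 12.9 ± 1.93 CPM on the folic acid diet and 14.0 ± 1.90 CPM on the control diet. Slc25a32, which carries folate into mitochondria, stood at 8.48, 7.01, 10.0 and 9.42 CPM on the folic acid diet, against 18.2, 15.5, 11.2 and 11.3 CPM on the control diet. Its groups did not overlap, and its log2 change was -0.69 ± 0.26 (adjusted p = 0.729). The folate receptor gene Folr1 had no count in any intact library and was not tested, and Folr2 was at 0 to 0.419 CPM on the folic acid diet and 0.0982 to 0.695 CPM on the control diet.

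The enzymes likewise gave no call. Mthfd1, which interconverts the intermediate forms in the cytosol, averaged 46.4 ± 5.29 CPM on the folic acid diet and 49.3 ± 2.16 CPM on the control diet (SD, n = 4 each; log2 change -0.09 ± 0.20, adjusted p = 0.955). The serine hydroxymethyltransferase gene Shmt1 averaged 25.7 ± 7.47 CPM on the folic acid diet and 21.9 ± 5.24 CPM on the control diet (0.23 ± 0.27, adjusted p = 0.92). Mat2a, which makes S-adenosylmethionine, averaged 2823 ± 256 CPM on the folic acid diet and 2518 ± 152 CPM on the control diet (0.17 ± 0.17, adjusted p = 0.91). Ahcy, which clears the spent donor, had 64.5 to 74.7 CPM on the folic acid diet and 51.5 to 58.9 CPM on the control diet, without overlap (0.32 ± 0.17, adjusted p = 0.803).

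**Figure D3:**
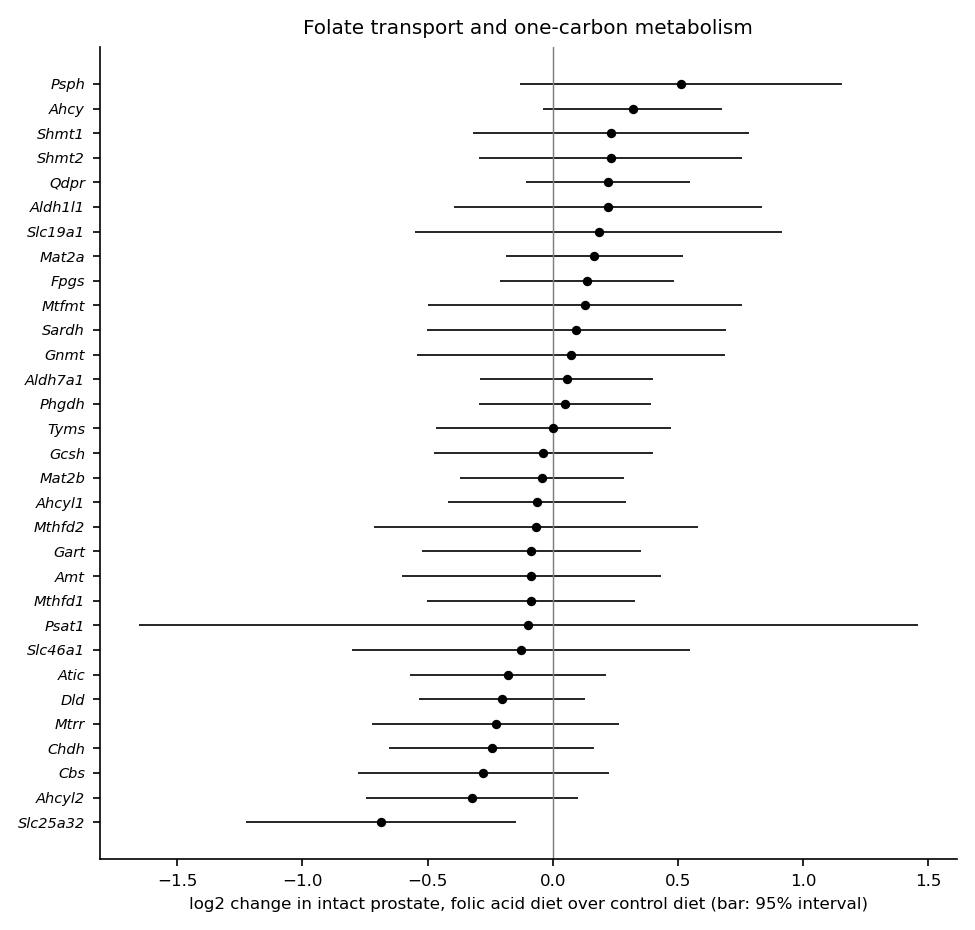
Log2 change in intact prostate, folic acid diet over control diet, with 95% intervals, of 31 of the 32 folate and one-carbon genes whose log2 CPM averaged 3 or more, with 1 gene not shown. The points lie between -0.69 (Slc25a32) and 0.51 (Psph), and no gene passed.

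Genes that use the methyl donor were also without a call. Of 17 tested genes of DNA methylation and demethylation none passed in the edgeR, DESeq2 or limma-voom fits, with a median log2 change of 0.005 and 1 unadjusted p under 0.05. The maintenance methyltransferase Dnmt1 averaged 20.8 ± 4.10 CPM on the folic acid diet and 26.1 ± 5.21 CPM on the control diet (SD, n = 4 each; log2 change -0.33 ± 0.24, adjusted p = 0.85). The de novo methyltransferase Dnmt3a averaged 29.7 ± 7.85 CPM on the folic acid diet and 31.3 ± 1.04 CPM on the control diet (-0.08 ± 0.19, adjusted p = 0.956). Of 31 histone and RNA methyltransferase genes none passed by any of these tools, with a median of -0.015 and 1 unadjusted p under 0.05, Carm1 at -0.69 ± 0.28 (adjusted p = 0.756). Of 21 polyamine genes none passed by any of these tools and none had an unadjusted p under 0.05. The median of that list was 0.093.

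The cell cycle list had the highest median of the tested lists, 0.652, but no member passed. Of 61 tested genes 56 were above 0, 3 had an unadjusted p under 0.05, all higher, and neither DESeq2 nor limma-voom called any. Of all 13412 tested genes 6463 were above 0, and 2.38% were higher at that p. The summed level was 920, 555, 861 and 1288 CPM on the folic acid diet, against 678, 531, 599 and 831 CPM on the control diet. The groups overlapped, with folic acid replicate 2 near the lowest control library. Mki67, the proliferation antigen, stood at 65.8, 15.5, 77.7 and 108 CPM on the folic acid diet, against 31.5, 21.98, 22.6 and 69.8 CPM on the control diet (log2 change 0.86 ± 0.65, adjusted p = 0.865). Mcm6, a subunit of the replicative helicase, was the 1 member without overlap, with 17.7 to 28.5 CPM on the folic acid diet and 12.2 to 17.5 CPM on the control diet (0.58 ± 0.26, adjusted p = 0.78). Without overlap, 1.8% of all tested genes were higher, and 1 of 61 is near that share. Without folic acid replicate 4 the median of the list was 0.257, with 45 of 60 above 0.

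No secretory product of the lobe passed the test, and the largest one, Sbp, had a share of counts that did not differ beyond the spread of the libraries. Of 34 tested genes that the prostate secretes or androgens induce none passed in the edgeR, DESeq2 or limma-voom fits. The median was -0.109 (-0.004 without folic acid replicate 3 and 0.036 in limma-voom), with 2 unadjusted p under 0.05 higher and 1 lower. Sbp took 56.9, 58.1, 59.8 and 49.3% of counts on the folic acid diet, against 50.1, 51.9, 52.7 and 52.8% on the control diet. Its mean share of 56.0% ± 4.61 exceeded the 51.9% ± 1.22 of the control diet by 4.16 percentage points (SD, n = 4 each), with a two-sided exact permutation p of 0.143, adjusted to 0.179 over 5 library measures. Without folic acid replicate 4 the difference was 6.39 points (exact p = 0.0286 for 3 against 4 libraries, unadjusted). Counting error was at most 0.0388 points either side in any of these libraries (exact binomial interval, 95%).

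Spink3, a secreted trypsin inhibitor, did not pass. In CPM its libraries did not overlap, at 15880 to 22010 on the folic acid diet, against 7324 to 14670 on the control diet, but in share of counts folic acid replicate 1, at 0.959%, stood below control replicate 1, at 1.03%. The share averaged 1.17% ± 0.159 on the folic acid diet and 0.832% ± 0.240 on the control diet (SD, n = 4 each). Its exact permutation p was 0.0571, adjusted to 0.179 over 5 library measures, where 0.0286 is the smallest unadjusted p that 4 against 4 libraries allow. In the edgeR fit the log2 change of Spink3 was 0.64 ± 0.25 (adjusted p = 0.719). Pbsn, the probasin gene, varied widely within each diet, at 170, 26.9, 217 and 512 CPM on the folic acid diet and 6.55, 160, 2813 and 1267 CPM on the control diet. Tmprss2, an androgen-induced serine protease, averaged 108 ± 16.6 CPM on the folic acid diet and 117 ± 10.7 CPM on the control diet.

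Of the lists that follow, none had a member that passed in the edgeR fit. Of all 13412 tested genes 6463 were above 0. At an unadjusted p under 0.05, 2.38% of all were higher and 3.86% lower. The 75 nuclear genes of the respiratory chain had a median log2 change of 0.196, with 66 above 0 and 3 unadjusted p under 0.05, all higher. The 77 genes of cytosolic ribosomal proteins had a median of 0.094, with 66 above 0, but without folic acid replicate 2 it was -0.068, with 57 below 0, and in limma-voom -0.018, with 48 below 0. With library totals in place of TMM factors the medians of the respiratory chain and the ribosomal list were 0.051 and -0.07, beside -0.151 for all genes. The 19 skeletal muscle genes had a median of -4.29 and 13 unadjusted p under 0.05, all lower, with control replicate 2 high in those transcripts. Without that library the median was 2.27. Markers of smooth muscle had a median of -0.326 over 16 genes and those of endothelium -0.533 over 18, with folic acid replicate 3 the lowest library in both. Without it the medians were -0.015 and -0.239, and without it and control replicate 2 they were 0.024 and 0.062. Its smooth muscle sum was 919 CPM, against 2821 to 3595 CPM in the other folic acid libraries and 2309 to 4024 CPM in the control libraries. The 14 markers of proximal luminal epithelium had a median of 0.195, with 11 above 0, and summed to 2336 to 2410 CPM on the folic acid diet, against 1753 to 2107 CPM on the control diet, without overlap. Without control replicate 2 their median was 0.631, and without both that library and folic acid replicate 3 it was 0.471. With all libraries DESeq2 called 1 of them, Ppp1r1b. Of the 14 luminal markers limma-voom called 1, Cd24a.

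**Figure D4:**
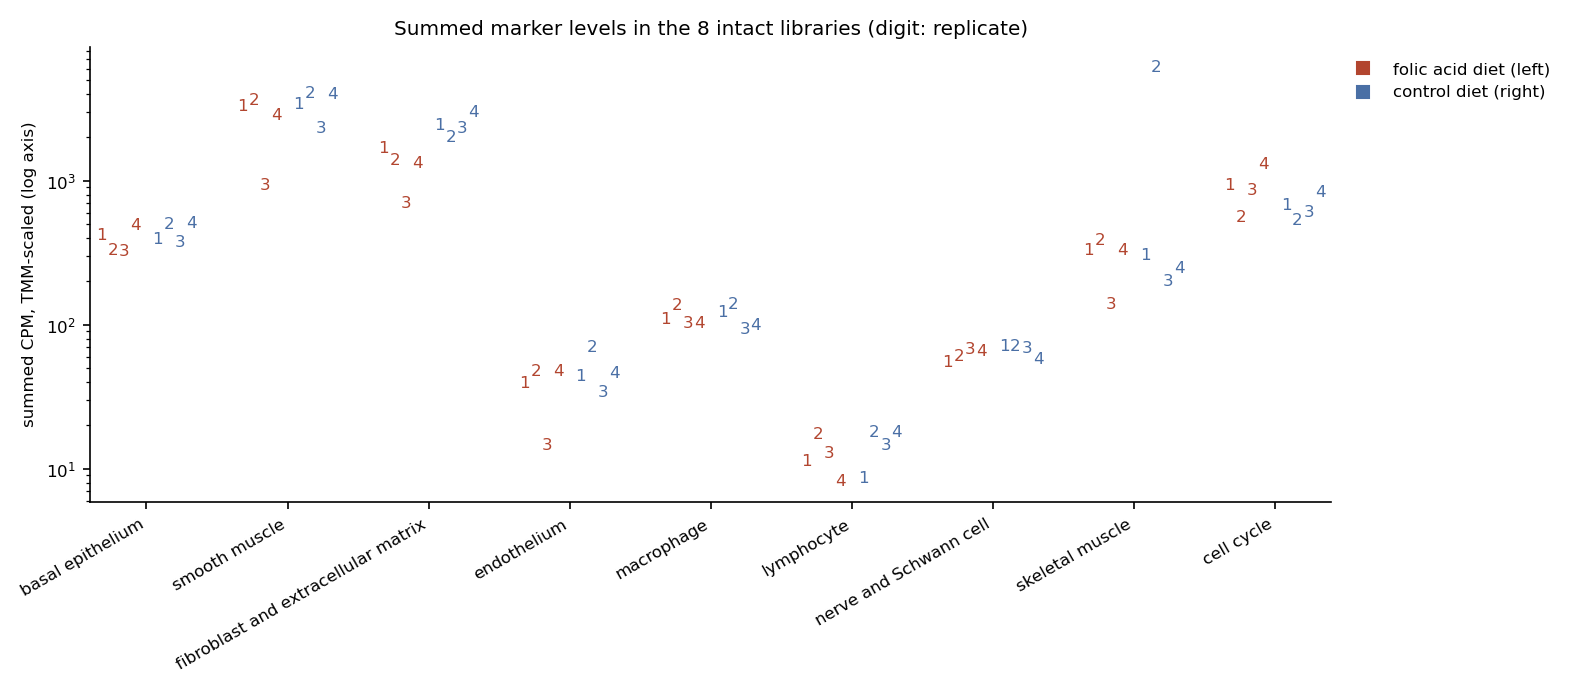
Summed CPM of marker lists in each of the 8 intact libraries on a log axis, folic acid diet in red on the left and control diet in blue on the right, with the digit giving the replicate. Folic acid replicate 3 is the lowest library for smooth muscle, fibroblast and endothelial markers, control replicate 2 is high for skeletal muscle at 6095 CPM, and the fibroblast sums of the diets do not overlap.

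After castration, some of the same genes differed between the diets. These libraries share no sample with the intact ones, although all entered the same fit. At 3 d 9 genes passed (0.0671% of those tested), and 3 of them, Gpx3, Il13ra1 and Tsc22d3, were among the 7 of the intact gland, which is 33.3% of the 9 and 42.9% of the 7. At 10 d 16 genes passed (0.119%), and 1 of them, Ank, was among the 7, which is 6.25% of the 16 and 14.3% of the 7. The sign of the change was that of the intact gland in 6 of the 7 genes at 3 d, all but Pdia4, and in all 7 at 10 d. The count at 3 d was 2 without folic acid 3 d replicate 2 or 3 and 4 without control 3 d replicate 4, and that at 10 d was 9 without control 10 d replicate 1, 10 without control 10 d replicate 3 and 24 without folic acid 10 d replicate 1. Across all tested genes the log2 changes of the intact gland had a Pearson correlation of 0.099 with those at 3 d and -0.067 with those at 10 d, where genes are not independent of each other.

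Il13ra1 stood at 38.6, 26.2, 29.0 and 43.0 CPM on the folic acid diet 3 d after castration, against 94.7, 55.6 and 76.8 CPM on the control diet (log2 change -1.14 ± 0.22, adjusted p = 0.0216). At 10 d it stood at 43.9, 37.7, 45.9 and 50.4 CPM on the folic acid diet, against 69.5, 84.5, 57.4 and 84.9 CPM on the control diet (-0.74 ± 0.21, adjusted p = 0.314). The groups did not overlap at either time. In TMM-scaled CPM the control level was alike in the 3 states, with means of 78.2 CPM in the intact gland, 75.7 CPM at 3 d and 74.1 CPM at 10 d. The mean on the folic acid diet was 18.0, 34.2 and 44.5 CPM in that order. Such a comparison between states rests on the TMM factors, which ran from 0.553 to 1.695 over the 23 libraries. The change of the diet difference from intact was 0.97 at 3 d (adjusted p = 0.998) and 1.38 at 10 d (adjusted p = 0.193), neither of which passed.

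Gpx3 at 3 d averaged 14.3 ± 6.89 CPM on the folic acid diet and 117 ± 59.7 CPM on the control diet (SD, n = 4 and 3; log2 change -3.02 ± 0.51, edgeR adjusted p = 0.0213). At 10 d it averaged 29.2 ± 13.3 CPM on the folic acid diet and 49.0 ± 6.10 CPM on the control diet (-0.74 ± 0.45, adjusted p = 1). Tsc22d3 at 3 d averaged 48.4 ± 5.88 CPM on the folic acid diet and 99.8 ± 2.72 CPM on the control diet (-1.04 ± 0.19, edgeR adjusted p = 0.015). At 10 d its libraries overlapped, with means of 75.2 ± 15.7 CPM on the folic acid diet and 112 ± 29.1 CPM on the control diet (-0.58 ± 0.18, adjusted p = 0.467). Ank averaged 21.7 ± 9.31 CPM on the folic acid diet and 55.2 ± 5.68 CPM on the control diet at 10 d (-1.34 ± 0.26, edgeR adjusted p = 0.0209), and its log2 change at 3 d was -0.998 ± 0.268 (adjusted p = 0.331).

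Neither Pdia4 nor Asgr1 passed after castration. Pdia4 averaged 114 ± 8.36 CPM on the folic acid diet and 108 ± 15.1 CPM on the control diet at 3 d (log2 change 0.08 ± 0.17, adjusted p = 0.976), where the secretory pathway list had a median of 0.076. At 10 d the log2 change of Pdia4 was -0.28 ± 0.15 (adjusted p = 1). Asgr1 averaged 17.9 ± 3.47 CPM on the folic acid diet and 14.4 ± 3.43 CPM on the control diet at 3 d, and 57.4 ± 13.9 CPM on the folic acid diet and 26.9 ± 8.08 CPM on the control diet at 10 d (log2 changes 0.31 ± 0.31 and 1.09 ± 0.28, adjusted p = 0.916 and 0.166). Both diets were thus far above their intact levels of 3.39 ± 1.27 CPM on the folic acid diet and 0.633 ± 0.492 CPM on the control diet.

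**Figure D5:**
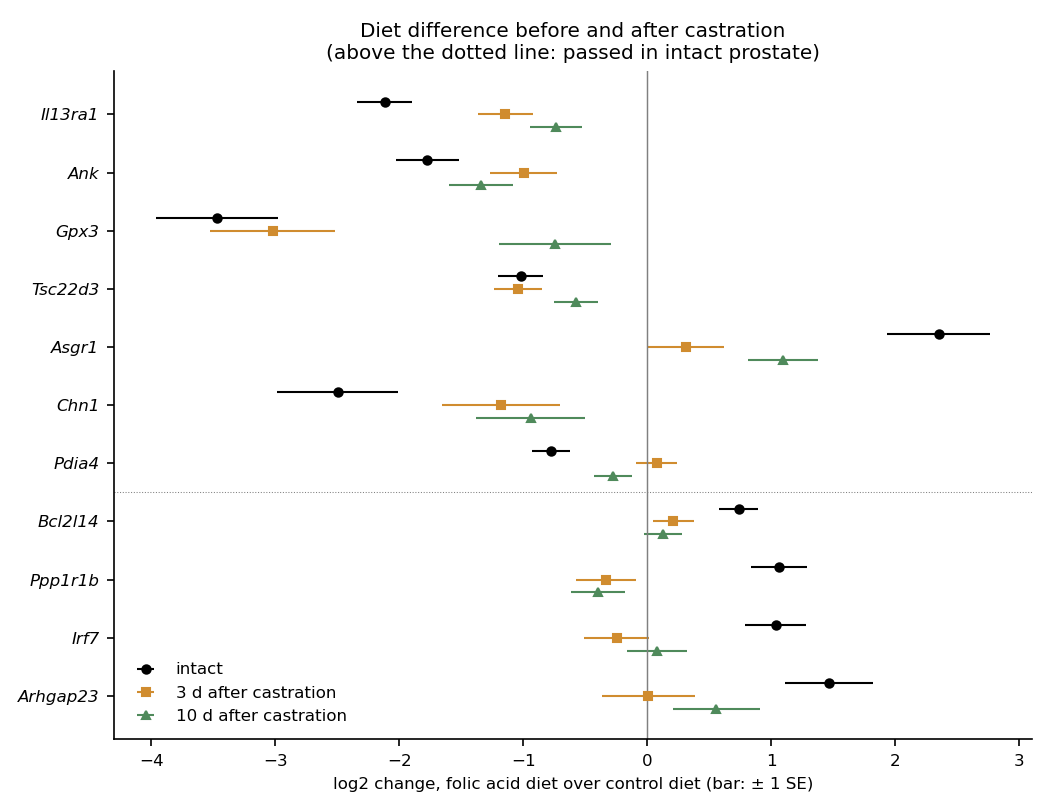
Log2 change between the diets (folic acid over control, ± 1 SE) in intact prostate, 3 d and 10 d after castration, for the 7 genes that passed in the intact gland (above the dotted line) and the 4 next by p among those higher on the folic acid diet. Il13ra1, Ank, Gpx3, Tsc22d3 and Chn1 lie below 0 in all 3 states, while Ppp1r1b is at 1.06 in the intact gland, -0.33 at 3 d and -0.40 at 10 d.

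Whether the diet difference itself depended on castration was tested by the diet by castration interaction. At 3 d no gene passed in edgeR, with 650 genes at an unadjusted p under 0.05, 3 called by DESeq2 and none by limma-voom. At 10 d 2 genes passed (0.0149%), Fabp5 and Crabp1, neither of which passed between the diets in the intact gland. Fabp5, a fatty acid binding protein, averaged 85.0 ± 23.5 CPM on the folic acid diet and 88.5 ± 19.7 CPM on the control diet in intact mice (SD, n = 4 each; log2 change -0.06 ± 0.28, adjusted p = 0.979). Crabp1, a retinoic acid binding protein, averaged 155 ± 36.8 CPM on the folic acid diet and 198 ± 8.91 CPM on the control diet (-0.35 ± 0.27, adjusted p = 0.87). Of the 7 genes of the intact gland none passed the interaction at either time in the edgeR fit. At 3 d Il13ra1, Ank, Asgr1 and Pdia4 had an unadjusted p under 0.05. At 10 d Il13ra1, Gpx3, Asgr1, Chn1 and Pdia4 did, beside 728 of all 13412 tested genes. The 7 were chosen by their intact difference, which the interaction subtracts. A smaller difference after castration is thus partly built in, and these tests cannot show whether it shrank. The smallest adjusted p among the 7 was 0.193. DESeq2 called 10 genes at 10 d, Il13ra1 and Gpx3 among them, and limma-voom 4, none of them among the 7.

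The 18 genes that in the edgeR fit of all libraries passed only after castration had intact adjusted p values from 0.131 to 0.979. In 4 of them the intact libraries did not overlap, beside the 1.8% of all tested genes with every folic acid library above the control libraries and the 2.59% with every one below. Piezo2, a mechanically gated ion channel gene, had a log2 change of -1.17 ± 0.26 in the intact gland (adjusted p = 0.131) and -1.54 ± 0.26 at 10 d (adjusted p = 0.00633). In the intact gland it was called in 6 of the other fits, which were DESeq2, limma-voom, library totals, the replicate block and both fits of the 8 intact libraries. Pdzk1, a scaffold gene for membrane transporters, was at 0.59 ± 0.21 in the intact gland (adjusted p = 0.706) and at 2.18 ± 0.26 at 3 d (adjusted p = 1.89e-05). The others were 5430419D17Rik, at -0.99 ± 0.33 in the intact gland and called there by limma-voom and in the 8 intact libraries alone without the block, and 9530002B09Rik, at 0.27 ± 0.26.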

How the data were processed

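The authors sequenced poly(A) RNA of the ventral prostate, and per the submitters' processing notes used RSEM 1.2.3, bcl2fastq 2.17.1.14 and Bowtie 0.12.9 with build mm10. The values are the authors' deposited expected counts, 1 estimate per gene and library, not scaled between libraries. For annotation, read length and strand setting the entry is: not given in the sources used here. 1 further column of per-sample values was not used.

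Expected counts were rounded (19.5% were not whole), filtered by filterByExpr with the 6 groups (a count of 10, a total of 15) and scaled with TMM factors (0.553 to 1.695). One robust edgeR 4.0.16 quasi-likelihood fit (R 4.3.3, limma 3.58.1) of all 23 libraries and 6 group means gave each contrast, with a biological coefficient of variation of 0.364. p-values were adjusted by Benjamini-Hochberg over all 13412 genes with a threshold of 0.05. SE is the log2 change over the root of its F statistic. The script was checked on simulated counts. DESeq2 1.42.0 and limma-voom were alternatives, beside other scalings, filters, the replicate number as a block, the 8 intact libraries alone and leaving out each library.

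The genes named were, where log2 CPM averaged 0 or more in the intact libraries and no predicted or unnamed gene, up to 15 called each way by p, or the 5 of smallest p where fewer than 5 were called. Added were up to 4 members of each of 34 lists and genes of folate and androgen biology chosen in advance. Members and lists were chosen with earlier results of these data known. Sel1l, Hyou1, Syvn1, Psat1, Cd24a and the genes called after castration were named after their values were seen. Of the 34 lists, the mitochondrial genome had no gene in the table and seminal vesicle none tested, and the medians of those not described in the results are with the limits. Positions and promoters are from GENCODE M21 and RefSeq. A read shared by related genes, as Sbp and Sbpl, is divided by estimate. Some genes are not reported here.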

Additional observations from a re-analysis of the deposited data

Results flagged for a closer look

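In the groups of 4 intact libraries, 94 sets of values (named genes, marker sums and library measures) were searched for 1 library far from the other 3 by Dixon's test, and 4 were found (4.26%), where chance gives about 1 in 20. Ppp1r1b stood at 45.6 CPM in folic acid replicate 1, against 63.6 to 65.8 CPM in the other folic acid libraries. Sbpl stood at 29.1 CPM in control replicate 3, against 7.12 to 10.1 CPM in the other control libraries. The skeletal muscle markers summed to 6095 CPM in control replicate 2, against 198 to 305 CPM in the others. The nerve and Schwann cell markers summed to 57.3 CPM in control replicate 4, against 68.7 to 71.0 CPM in the others.

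The diet difference of 2 genes changed between the intact gland and 10 d after castration in the edgeR interaction test. Fabp5 had an interaction of -2.84 ± 0.40 on the log2 scale (adjusted p = 0.00255), with 71.4 to 211 CPM on the folic acid diet at 10 d, against 1053 to 1435 CPM on the control diet. Crabp1 had an interaction of -2.55 ± 0.42 (adjusted p = 0.0172), with 1.26 to 5.13 CPM on the folic acid diet at 10 d, against 19.4 to 29.5 CPM on the control diet.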

How the results depend on the processing

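No result changed direction with a called value. The 7 genes of the intact comparison became 23 with DESeq2 (all 7 among them), 33 with limma-voom and sample weights (6) and 11 with a replicate block (all 7). They became 3 without both folic acid replicate 3 and control replicate 2. Leaving out 1 library gave 3 to 48. The 8 intact libraries alone gave 7, of which 3 were shared (Ank, Il13ra1 and Tsc22d3), and 5 with the replicate block. Same-numbered libraries of the diets correlated at 0.013 to 0.146. Folic acid replicates 2 and 3 matched the control library of their own number best, and replicates 1 and 4 did not. With 4 libraries per diet these values cannot decide whether the numbers pair the mice. After castration the counts were 28 and 17 (DESeq2, limma-voom) in place of 9 at 3 d, 2 to 10 without 1 library, and 45 and 31 in place of 16 at 10 d, 9 to 24 without 1 library. The interaction at 3 d gave 1 gene with no filter, 3 with DESeq2 and 0 to 2 without 1 library. At 10 d it gave 10 with DESeq2, 4 with limma-voom, 1 with the replicate block and 1 to 3 without 1 library. The castrated libraries were left out by a choice made after seeing the data. The Sbp difference ranged from 2.91 to 6.39 points, and the exact p fell to 0.0286 without folic acid replicate 4. The difference in total count, -1.86 M, ranged from -3.21 to -0.133 M. The cause of these moves was not tested.

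Limits of the comparison are 4 mice per diet, a depth of 6.38 M in 1 library, and a log2 SE of 0.291 at the median gene. Sbp took 49.3 to 59.8% of each library on the folic acid diet and 50.1 to 52.8% on the control diet, and Asgr1 and Chn1 rested on 24 to 350 counts per group. Of the lists not described in the results, the median log2 changes were 0.028 for cell death, 0.032 for cholesterol and fatty acid synthesis, -0.068 for steroid receptors, -0.076 for immediate-early genes, 0.302 for MHC class II and 0.133 for MHC class I. Among markers they were 0.122 for luminal and -0.111 for basal epithelium, -0.039 for macrophage, -0.133 for lymphocyte, 0.234 for neutrophil and mast cell, 0.193 for adipocyte, -0.175 for nerve, 0.151 for red blood cell and 0.143 for urothelium. No member of these passed in the edgeR fit, and the medians for cell death, cholesterol and fatty acid synthesis, macrophage, lymphocyte and adipocyte changed sign when 1 library was left out.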
